A study of Homo sapiens with 6 samples.

Results

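JUN, JUNB, JUND, FOS, FOSB, FOSL1, FOSL2, ATF3, EGR1 and IER2 are 10 immediate early genes, of which the first 8 encode subunits of, or partners for, the transcription factor AP-1. They were chosen by gene name among the 19211 gene names of an mRNA-seq table, with their values in growing and PP242-treated cells already known. For that reason their values are given as a description with no test, and nothing is supported with them. The 10 genes correspond to 14 transcripts that carry their names, of 38438 transcripts in all, and 2 further ATF3 transcripts were identified by accession.

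The study asked which mRNAs the RNA-binding protein LARP1 contacts when the kinase mTOR is active or inactive, and mRNA levels were measured alongside. All libraries came from HEK293T, a single human embryonic kidney line that expresses SV40 large T antigen, either growing or exposed to PP242, which blocks the kinase activity of mTOR, at 2.5 µM. The length of the PP242 treatment of these libraries is not given in the sources used here. The mRNA-seq data comprised 2 libraries per condition, and no 4-thiouridine treatment is stated for their cells. The PAR-CLIP data comprised 1 library per condition. The PAR-CLIP cells had received 100 µM of this photoreactive nucleoside for 14 hr before crosslinking with 150 mJ/cm2 of ultraviolet light.

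AP-1 is a dimer of basic leucine zipper proteins. Jun proteins can pair with each other, whereas Fos proteins need a partner such as Jun, and the dimers bind the palindromes TGANTCA and TGACNTCA. Immediate early genes are transcribed within minutes of growth factor or stress signals without new protein synthesis, largely through MAP kinases that act on serum response factor and its cofactors at CArG boxes, and many of their mRNAs are short-lived. Among the genes they share a pathway with are phosphatases that switch MAP kinases off again.

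The promoters are shown first because they were searched for patterns of the elements that AP-1, EGR1 and serum response factor bind. The letters TATAAA of a TATA box were also searched, wherever they lay in a promoter. RefSeq promoter sequences were found for 9 of the 10 genes, with 2 promoters for ATF3. Each had 300 bases, 250 before and 50 after the transcription start. Those that held an element were placed on GRCh37. FOSL1 had no entry. On either strand, TGACNTCA was found in 3 of these 10 promoters (JUN, JUND and the first promoter of ATF3) and in 7.72% of 35116 promoters in the table. A CArG box was found in EGR1 alone among the 10, at 2 places that are separated by few bases, and in 1.29% of all promoters. The EGR1 promoter also held GCGNGGGCG, a loose pattern for sites of the EGR1 protein itself that allows any base at N. This pattern occurred in 9.43% of all promoters. The match lay at -198 to -190 with C at N, and whether the EGR1 protein recognises that version was not tested. The promoter of FOSL2 held TGANTCA, which occurred in 7.71% of all promoters. Positions are counted from the transcription start, with coordinates of the printed bases on GRCh37, and capitals mark the element.
JUN, -67 to -60, chr1:59249768-59249797, minus strand: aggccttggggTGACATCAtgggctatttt
JUND, -200 to -193, chr19:18392614-18392643, minus strand: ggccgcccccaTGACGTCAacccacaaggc
ATF3, -123 to -116, chr1:212738615-212738644, plus strand: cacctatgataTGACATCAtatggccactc
FOSL2, 5 to 11, chr2:28615718-28615746, plus strand: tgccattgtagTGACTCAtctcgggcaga
EGR1, -105 to -96, chr5:137801053-137801082, plus strand: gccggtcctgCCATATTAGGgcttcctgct
EGR1, -83 to -74, chr5:137801075-137801104, plus strand: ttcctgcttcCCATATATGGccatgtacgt

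The promoters of JUNB, FOS, FOSB and the second promoter of ATF3 held TATAAA, which occurred at any position in 11.5% of all promoters, and none of the other elements searched. It lay at -31 to -26 in JUNB, -33 to -28 in FOS and -30 to -25 in FOSB. In the second promoter of ATF3 it lay much farther from the start, at -230 to -225, so these letters are not called a TATA box there. A match describes the letters in this window and does not show that a factor bound there. Elements outside the window were not searched for, so a promoter without a match may have them farther away. The promoter of IER2 held none of the elements searched. Neither ATF3 promoter covers the start of the ATF3 transcript that the gene annotation marks as representative, at base 212782103 of chromosome 1. That transcript was not chosen by level, and the starts of the measured ATF3 transcripts were not compared with the promoters. The first promoter lies upstream of the representative transcript. The second lies inside it, with its TATAAA between bases 212788119 and 212788146.

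The deposited mRNA levels are in RPKM, reads scaled to the length of the transcript and to the mapped reads of the library, so levels of different genes can be compared per length. From the smallest steps between values, the libraries were estimated to hold about 32900000 to 34900000 mapped reads, and 36046 to 36149 transcripts were above 0 in each. Differences between conditions were computed as log2(RPKM + 1) in PP242-treated minus growing cells with limma over the 21014 transcripts whose mean reached 1 RPKM, and this scale understates the change of low genes. The 2 libraries of a condition are described as biological duplicates and nothing more is stated of separate cultures, so p-values measure only the spread between these libraries. An exact permutation test of 2 against 2 libraries cannot go below a two-sided p of 0.333. ACTB and GAPDH, used as control genes, overlapped between the conditions, and TBP differed by -0.12 on the log2 scale (adjusted p = 0.0849, limma with Benjamini-Hochberg adjustment). Of 7 genes that mark HEK293T, 6 were at 1 RPKM or more in every library, with PAX2 at 0.116 to 0.136, and their summed level was 79.6 to 80.0 RPKM in growing and 77.3 to 78.8 RPKM in treated cells. Markers of blood cells, hepatocytes and endothelium that had values were at 0.203 RPKM or less, and of the fibroblast markers COL1A1 was at 1.76 to 1.85 RPKM and DCN at 0.0023 to 0.0156 RPKM. The blood cell marker HBB and the fibroblast marker COL1A2 were also chosen but had no value.

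Across the 10 genes, JUN, FOS, ATF3 and EGR1 were higher in both PP242 libraries than in both growing libraries. JUNB, JUND, FOSL1, FOSL2 and IER2 were lower in both, and FOSB overlapped. Their log2 differences ran from -0.41 for FOSL1 to 1.00 for EGR1 with a median of -0.017, beside a median of -0.0013 over all tested transcripts. The middle 90% of all tested transcripts lay between -0.20 and 0.14. Over all tested transcripts the libraries did not overlap for 28.5% as higher and 30.0% as lower, and since this contrast was used in choosing the genes, nothing is read from their counts. FOS and FOSB stayed under the filter of 1 RPKM, and of the 8 genes that passed it EGR1 and FOSL2 were above 1 RPKM in 1 condition only.

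**Figure D1:**
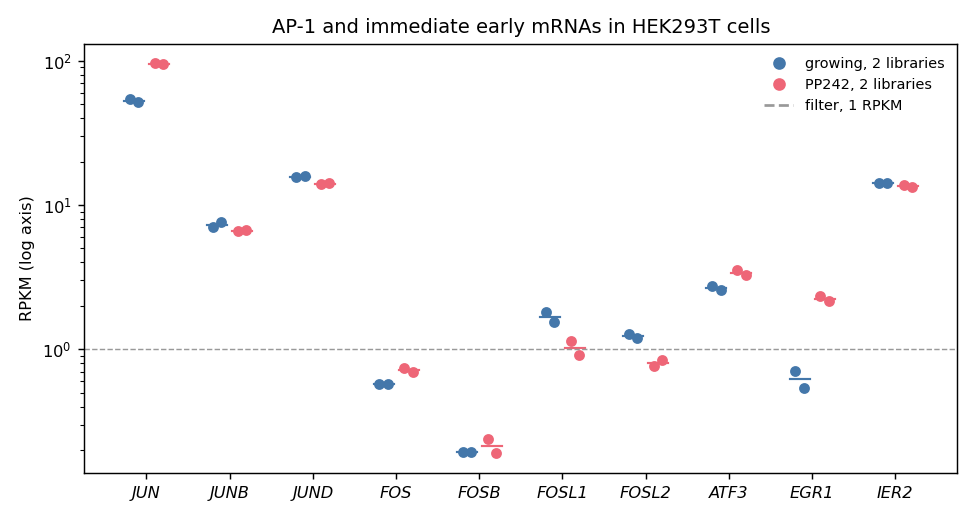
RPKM of each gene on a log axis in the 2 growing and 2 PP242-treated libraries, with 1 point per library for the transcript of highest mean level. JUN lies highest in all 4 libraries, at 51.4 to 95.7 RPKM, EGR1 is separated most between the conditions, and FOS and FOSB stay under 1 RPKM.

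JUN, the founding Jun subunit and a target of JNK kinases, is a gene of 1 exon on the minus strand of chromosome 1, at 59246463 to 59249719. Its level was 54.3 and 51.4 RPKM in the growing libraries and 95.7 and 94.6 RPKM in the PP242 libraries. The conditions were far apart relative to the spread within them, and the mean after PP242 was 1.80 times the growing mean. The log2 difference of 0.84 ± 0.031 (SE, n = 2 per condition) ranked 15 from the top of the tested transcripts. In bulk RNA a change in the share of cells that express a gene and a change in RNA per cell cannot be told apart. About 5800 to 11000 reads per library underlie this value, more than for any other of the 10 genes.

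JUNB and JUND, the other Jun subunits, were lower after PP242. JUNB, which often counteracts JUN, is also a gene of 1 exon, on chromosome 19 at 12902300 to 12904129. Its level was 7.08 and 7.57 RPKM in growing and 6.60 and 6.67 RPKM in treated cells. JUND, the Jun subunit that is usually present without stimulation, has 1 exon on chromosome 19 at 18390504 to 18392432. Its level was 15.7 and 15.8 RPKM in growing and 14.0 and 14.1 RPKM in treated cells. In both genes the libraries of the conditions did not overlap, but the differences were small, at -0.12 ± 0.039 for JUNB and -0.15 ± 0.027 for JUND on the log2 scale (SE, n = 2).

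Because JUN was higher and the other Jun genes were slightly lower, the make-up of the Jun family mRNA differed between the conditions. JUN accounted for 69.6 ± 1.22% of the summed RPKM of the 3 genes in growing cells and 82.2 ± 0.225% after PP242 (SD, n = 2). JUND went from 20.7 ± 0.564% to 12.1 ± 0.155% of the sum and JUNB from 9.65 ± 0.657% to 5.73 ± 0.0703%, and no share overlapped between conditions. The sum itself was 77.0 and 74.8 RPKM in growing and 116.3 and 115.4 RPKM in treated cells, a ratio of means of 1.53.

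The 4 Fos genes, whose products lend AP-1 its strongest activating domains or, in FOSL1 and FOSL2, lack such a domain, were all at or under 1.82 RPKM. FOS, the prototype of the immediate early genes, has 4 exons on chromosome 14 at 75745531 to 75748933. It was at 0.572 and 0.571 RPKM in growing and at 0.747 and 0.691 RPKM in treated cells. Both treated libraries were higher, with a ratio of means of 1.26, but only about 40 to 54 reads per library underlie these values. FOSB, a close relative of FOS that lies on chromosome 19 at 45971254 to 45978437, was at 0.193 and 0.193 RPKM in growing and 0.241 and 0.190 RPKM in treated cells. Its libraries overlapped. Its other transcript was at 0.182 and 0.184 RPKM in growing and 0.208 and 0.188 RPKM in treated cells, without overlap, and the sum of both transcripts was at 0.375 and 0.377 RPKM against 0.448 and 0.378 RPKM. The second treated library thus lay within 0.01 RPKM of the growing libraries in each of these measures.

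FOSL1 and FOSL2, which encode FRA-1 and FRA-2, were lower after PP242. FOSL1, on chromosome 11 at 65659520 to 65667859, was at 1.82 and 1.55 RPKM in growing and at 1.14 and 0.911 RPKM in treated cells. FOSL2, on chromosome 2 at 28615725 to 28640184, was at 1.27 and 1.21 RPKM in growing and at 0.766 and 0.850 RPKM in treated cells. In both genes every treated library lay under every growing library, and the growing mean was 1.64 times the treated mean for FOSL1 and 1.53 times for FOSL2. The log2 differences were -0.41 ± 0.074 and -0.31 ± 0.044 (SE, n = 2), beside a lowest 1% of all tested transcripts that began at -0.38. About 54 to 100 reads per library underlie the FOSL1 level and 180 to 280 that of FOSL2.

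Summed over the 4 genes, the Fos family was at 4.04 and 3.70 RPKM in growing and 3.10 and 2.83 RPKM in treated cells. The sum was thus lower after PP242, with a ratio of means of 0.767, while that of the Jun family was higher. FOS made up 14.8 ± 0.892% of the Fos sum in growing cells and 24.2 ± 0.252% after PP242, and FOSL1 went from 43.4 ± 2.33% to 34.5 ± 3.25% (SD, n = 2). The ratio of the Jun sum to the Fos sum was 19.1 and 20.2 in the growing libraries and 37.5 and 40.8 in the PP242 libraries. These are ratios of mRNA levels and say nothing of the proteins.

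**Figure D2:**
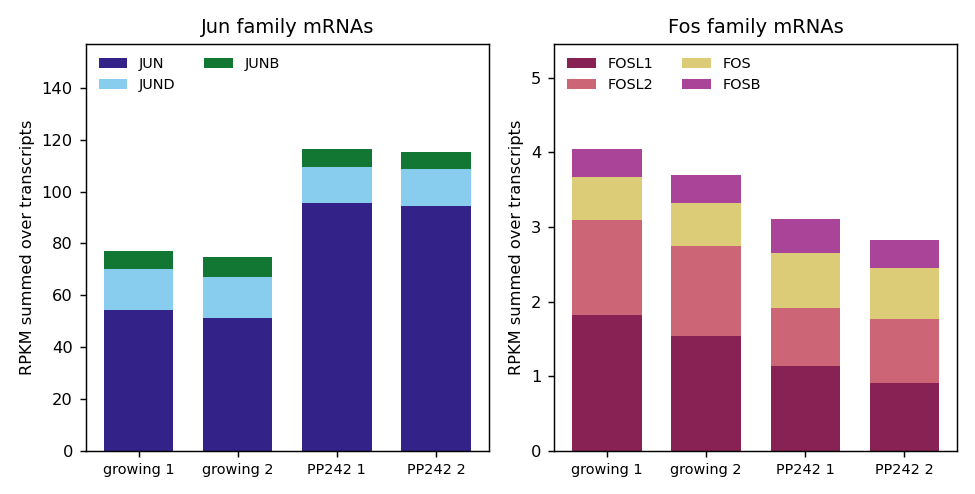
Summed RPKM of the Jun genes (JUN, JUNB, JUND) and of the Fos genes (FOS, FOSB, FOSL1, FOSL2) in each of the 4 libraries, stacked by gene on axes that start at 0. The Jun sum is 74.8 to 77.0 RPKM in growing and 115.4 to 116.3 RPKM in treated libraries, and the Fos sum is 3.70 to 4.04 and 2.83 to 3.10 RPKM.

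ATF3, a stress-induced basic leucine zipper protein that can pair with Jun proteins, has 6 transcripts in the table, which share most of their exons on chromosome 1. The representative transcript of the gene annotation lies at 212782103 to 212794117 and was not matched to these 6. The transcript of highest mean level was at 2.75 and 2.57 RPKM in growing and 3.53 and 3.28 RPKM in treated cells. Both treated libraries were higher, with a ratio of means of 1.28 and a log2 difference of 0.27 ± 0.046 (SE, n = 2). The other 5 transcripts differed by 0.24 to 0.27, but reads that match several of them were divided among them, so they are not separate measurements. Summed over its transcripts ATF3 was at 15.3 and 14.4 RPKM in growing and 19.5 and 18.3 RPKM in treated cells, a log2 difference of 0.33.

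EGR1, a zinc finger factor outside AP-1 and a classical target of serum response factor, has 2 exons on chromosome 5 at 137801168 to 137804992. It was at 0.710 and 0.536 RPKM in growing cells and at 2.33 and 2.16 RPKM after PP242. The mean after PP242 was 3.60 times the growing mean, the widest ratio among the 10 genes, and the log2 difference of 1.00 ± 0.062 (SE, n = 2) ranked 9 from the top. The growing libraries differed by more, relative to their mean, than those of any of the other 9 genes in either condition, with an SD of 19.8% of the mean. About 59 to 250 reads per library underlie these values.

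IER2, a short nuclear protein of the immediate early class, has 2 exons on chromosome 19 at 13261225 to 13265725. Its level was 14.2 and 14.1 RPKM in growing and 13.8 and 13.4 RPKM in treated cells. The treated libraries were lower without overlap, but the ratio of means was 0.957 and the log2 difference of -0.06 ± 0.030 (SE, n = 2) lay within the middle 90% of all tested transcripts, at rank 5313 from the bottom.

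**Figure D3:**
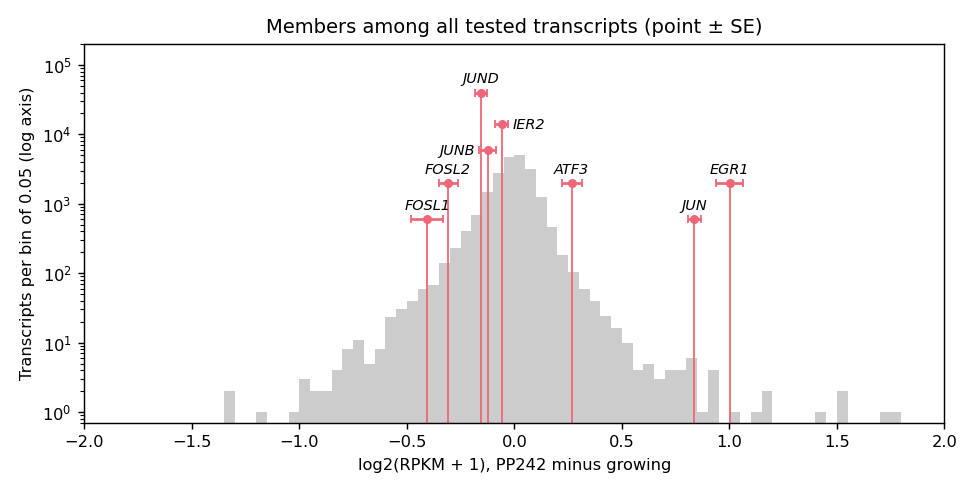
Histogram of the difference in log2(RPKM + 1), PP242 minus growing, of the 21014 tested transcripts, on a log count axis in bins of 0.05, with the 8 tested genes as points with SE bars at heights chosen for legibility. JUN and EGR1 lie in the upper tail at 0.84 and 1.00, and FOSL1 and FOSL2 lie at -0.41 and -0.31.

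In growing cells the order of levels by the leading transcript was JUN, JUND, IER2, JUNB, ATF3, FOSL1, FOSL2, EGR1, FOS and FOSB. The only neighbours whose libraries overlapped were EGR1 and FOS. After PP242 EGR1 stood above FOSL1 and FOSL2, and the other genes kept their places. The place of ATF3 depends on how its transcripts are counted, since its sum of 14.9 ± 0.649 RPKM in growing cells lies beside IER2 at 14.2 ± 0.0706 and JUND at 15.7 ± 0.0960 RPKM (SD, n = 2).

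The genes around AP-1 were examined in 9 lists of 133 genes, of which 94 were tested and 37 were under the filter. In these lists 12 genes rose and 22 fell at an adjusted p of 0.05 (limma with Benjamini-Hochberg adjustment over all transcripts), beside the 3.48% and 6.45% of all tested transcripts. The median difference of the 94 genes was -0.04. The lists were drawn up with earlier results of these data known, so their counts are descriptions. Leaving out any 1 of the 4 libraries left 5 to 6 genes that rose, and without growing replicate 1 only 13 fell.

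Feedback inhibitors of MAP kinase signalling held the most genes that fell, 7 of 11 tested, with none that rose and a median of -0.28. DUSP2, a nuclear phosphatase of ERK, was at 1.97 and 2.26 RPKM in growing and 0.60 and 0.504 RPKM in treated cells. Its log2 difference was -1.01 (adjusted p = 0.00107, limma). DUSP2 passed the filter of 1 RPKM only through its growing libraries, so its call is a description. Without the filter its adjusted p was 0.0511 (limma). DUSP7 and DUSP5, further ERK phosphatases, fell by 0.50 and 0.49 on the log2 scale (adjusted p = 0.00177 and 0.00275, limma). DUSP1, SPRY2, DUSP8 and ERRFI1 fell as well. With each library left out in turn, 5 to 7 genes of this list were called as lower. Among kinases of the cascade itself, 2 of 25 tested rose, BRAF by 0.22 and MAP2K7 by 0.14, and MAP3K2 fell by 0.16 (adjusted p = 0.0328, 0.0323 and 0.0336, limma), but at most 1 of these calls was held when any 1 library was left out.

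SRF, the factor that binds CArG boxes, fell from 18.7 and 18.6 RPKM to 14.2 and 14.4 RPKM, a log2 difference of -0.36 (adjusted p = 0.00193, limma). Of the other 5 tested genes in that list, MKL2, a coactivator of SRF, rose by 0.14 (adjusted p = 0.0447, limma), a call that was lost without any 1 library. NAB2, a corepressor of EGR1 and itself an EGR1 target, went from 6.07 and 6.25 RPKM to 3.94 and 4.05 RPKM, so that it was lower while EGR1 was higher (log2 difference -0.52, adjusted p = 0.00159, limma). NAB1 fell by 0.17 (adjusted p = 0.0334, limma), and the other 2 genes tested among EGR corepressors and targets did not pass. Only 1 of the 2 falls in that list was called without any 1 library.

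Other immediate early genes moved in both directions, with 5 of 14 tested that rose and 3 that fell. RHOB, an immediate early small GTPase, was at 27.8 and 26.2 RPKM in growing and 48.6 and 45.7 RPKM in treated cells, a log2 difference of 0.78 that is near that of JUN (adjusted p = 0.000874, limma). GADD45B, a stress sensor, rose by 0.58, and BTG1, an antiproliferative gene, by 0.22 (adjusted p = 0.00284 and 0.0282, limma). BTG2, a relative of BTG1, fell by 0.51, CYR61, a secreted matrix protein, by 0.41 and IER3, a survival gene, by 0.21 (adjusted p = 0.00263, 0.0306 and 0.0481, limma). The IER3 call was lost whichever 1 library was left out, and also without the trend and with sums over transcripts. The BTG1 call was held only without PP242 replicate 2, and that of CYR61 was lost without either growing replicate. Those of RHOB, GADD45B and BTG2 were held without any 1 library.

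Of the AP-1 dimer partners, 1 of 8 tested fell and none rose. That gene was MAFK, a small Maf protein, at 5.13 and 5.44 RPKM in growing and 3.34 and 3.36 RPKM in treated cells (log2 difference -0.53, adjusted p = 0.00187, limma). Among genes known to be regulated by AP-1, 2 of 9 tested fell and none rose. CCND1, the cyclin that drives entry into S phase, went from 17.5 and 17.0 RPKM to 10.4 and 9.91 RPKM (log2 difference -0.71, adjusted p = 0.000645, limma). HBEGF, an EGF receptor ligand, fell by 0.27 (adjusted p = 0.0495, limma). It passed the filter of 1 RPKM through its growing mean of 1.38 RPKM, and its mean after PP242 was 0.979 RPKM. The HBEGF call was lost without growing replicate 1, growing replicate 2 or PP242 replicate 1 (adjusted p = 0.149, 0.122 and 0.124, limma), and also with the replicate block, with either smaller pseudocount, without the trend, without the filter and with sums over transcripts. Of the proteins that bind AU-rich elements, by which many immediate early mRNAs are destabilised, 2 of 7 tested fell. ZFP36L2 went from 14.4 and 14.6 RPKM to 9.02 and 9.20 RPKM (log2 difference -0.62, adjusted p = 0.000641, limma) and ZFP36L1 fell by 0.45 (adjusted p = 0.0118, limma). The ZFP36L1 call was lost without growing replicate 1.

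In a list of genes that respond to heat shock, protein folding stress and cell handling, 4 of 10 rose and 3 fell. HSPA1A and HSPA1B, the inducible heat shock genes, overlapped between the conditions at log2 differences of -0.0079 and 0.0079 (adjusted p = 0.931 and 0.923, limma), though these near-identical genes can share reads. TXNIP, a thioredoxin inhibitor that responds to glucose, rose by 1.43, PPP1R15A, a phosphatase subunit of the integrated stress response, by 0.62 and DDIT3, a stress factor that like ATF3 lies downstream of ATF4, by 0.48 (adjusted p = 0.000342, 0.00177 and 0.00652, limma). XBP1, DNAJB1 and HSPA8 fell by 0.34, 0.17 and 0.15 (adjusted p = 0.00177, 0.0218 and 0.00943, limma). Without growing replicate 1, 3 genes of this list rose and 1 fell. Their part in the differences of JUN, ATF3 and EGR1 was not tested.

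**Figure D4:**
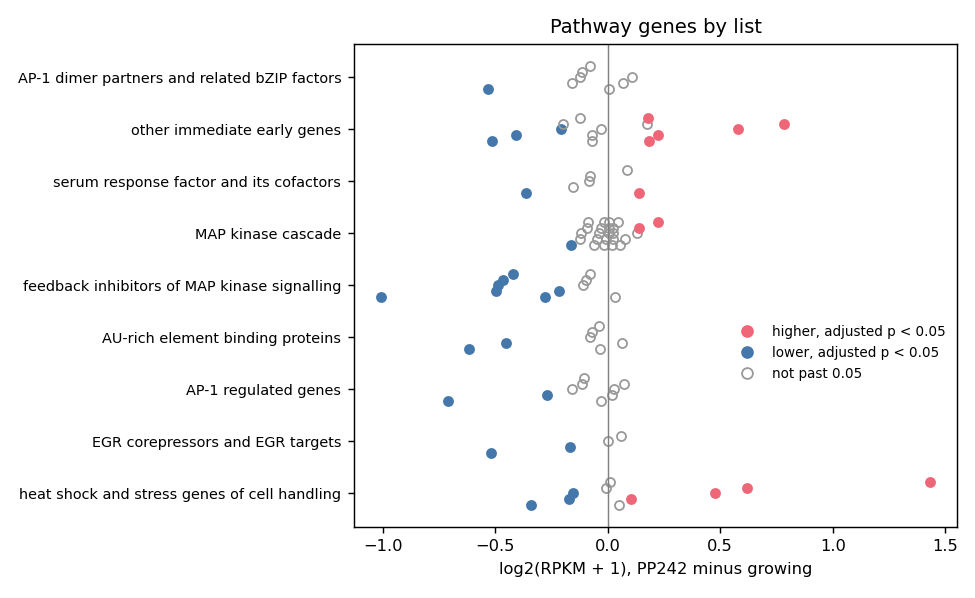
Difference in log2(RPKM + 1), PP242 minus growing, of the 94 tested genes of the 9 lists, with 1 point per gene, filled where the adjusted p is under 0.05 and spread vertically for legibility. Feedback inhibitors lie mostly left of 0, with DUSP2 at -1.01, and TXNIP at 1.43 lies farthest right.

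LARP1 binding gave a readout of the same genes that did not enter their choice. The deposited PAR-CLIP list of growing cells held 3948 sites, none on any of the 10 genes, and that of PP242-treated cells held 3947 sites with 1 of the 10 genes, ATF3. Of 20062 named genes in the mRNA-seq table, 9.05% had a listed site in growing and 9.25% in treated cells, so 0 or 1 of 10 genes is near the share over all genes. ATF3 had 2 entries of 14 nt in the 3’UTR, at nt 445 to 458 of NM_001206486.2 and at nt 835 to 848 of NM_001040619.2. Both had the same value of 0.138 RPM, reads scaled to the mapped reads of the library. Whether they are 1 site was not checked by sequence. The other ATF3 transcripts, among them the one of highest mean level described above, had no entry. The value of 0.138 RPM stood at percentile 62.1 of that list, in which the median was 0.0173 RPM, and was under 1 RPM. With 1 library per condition there is no replicate check, and a gene that is missing from a list of called sites is not at a level of 0. Sites are listed once for each transcript they lie on, so the list lengths are not numbers of distinct sites, and many listed sites are of low RPM. JUN, at 51.4 to 95.7 RPKM the most abundant of the 10 mRNAs, had no listed site in either condition.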

How the data were processed

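mRNA-seq was done in 4 libraries of HEK293T cells and LARP1 PAR-CLIP in 2. The authors mapped reads to the GRCh37 transcriptome with Bowtie, kept perfect matches for mRNA-seq, divided reads with several loci evenly among them, and deposited an RPKM value for every transcript in each library (the authors' mean per condition, also given, was not used). The authors deposited PAR-CLIP sites as RPM after clustering and filtering on T-to-C conversion. Whether the RPM threshold in the study's methods was applied to the deposited lists is not stated, and all listed sites were used.

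The mRNA-seq table held 39711 lines, and 1273 repeated lines were dropped. Of 5989 transcripts without a name, 2860 were named by accession from RefSeq annotation. Differences were fitted with limma 3.58.1 in R 4.3.3 (lmFit, eBayes with a trend) on log2(RPKM + 1) for transcripts whose mean reached 1 RPKM, with two-sided p-values, Benjamini-Hochberg adjustment and a threshold of 0.05. RPKM values are not counts, so no count test was used. Each gene is given by its transcript of highest mean RPKM. Figures were drawn with matplotlib 3.10.9, and other steps were run in Python 3.11.15 (pandas 2.3.3, numpy 2.4.6).

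Depth was estimated from the value of 1 read on olfactory receptor transcripts (4 to 7 per library agreed within a bin of 500000 reads), and approximate reads per gene from that depth and transcript lengths in GENCODE annotation of GRCh37, so they are rough and cover counting only. Promoters came from the RefSeq promoter table, and those that held an element were placed on GRCh37 by an exact match of the whole sequence. The fit was run on simulated data for growing against PP242 over 21014 transcripts. There 67 of 67 transcripts changed 1.25-fold, 67 of 67 changed 1.5-fold and 66 of 66 changed 2-fold were called with 10 unchanged ones. Without any change 0 were called. The changed transcripts were drawn only from levels well above the filter. Noise was normal, with a spread set by a smooth curve of the level, much as the fit assumes. This recovery therefore says nothing of genes near the filter or of the real spread between libraries.

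The 10 genes and the gene lists were chosen with earlier results of these data known. Named are all 10 genes, the control genes ACTB, GAPDH and TBP, and from each list the genes past the threshold, at most the 3 with the largest rise and the 3 with the largest fall. DUSP1, SPRY2, DUSP8, ERRFI1, HSPA1A and HSPA1B were named after their values were seen. Alternatives were other pseudocounts and filters, scaling of the libraries, a replicate block, no trend, sums over transcripts, leaving out each library, and RPM minimums for LARP1 sites.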

Additional observations from a re-analysis of the deposited data

How the results depend on the processing

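Over all transcripts, 731 higher and 1356 lower calls became 57 and 63 without a filter on RPKM, and 310 to 348 and 553 to 741 when 1 library was left out. In the gene lists, 12 higher and 22 lower calls became 2 and 6 without the filter, 14 lower calls were made at a mean of at least 5 RPKM, and 5 to 6 higher and 13 to 19 lower calls were made with 1 library left out. More transcripts tested and fewer samples are part of these alternatives' construction, and other causes were not tested. No gene had a LARP1 site of at least 1 RPM, against 1 without that minimum. With a replicate block 716 transcripts were higher and 1419 lower, and 11 and 21 in the lists. Same-numbered libraries correlated by 0.0401 in their deviations. With 2 libraries per condition this value cannot tell whether same-numbered libraries were prepared together. Of 90 recomputed differences of the 10 genes, 1 reversed, FOSB, which ranged from -0.0040 (without PP242 replicate 1) to 0.056 with 1 library left out. Another 12 of the 90 moved by at least the spread between replicates of that gene. A pseudocount of 0.1 moved EGR1 to 1.71, FOSL1 to -0.67, FOSL2 to -0.56, FOS to 0.29, FOSB to 0.10, ATF3 to 0.34 and JUND to -0.16. Sums over transcripts moved ATF3 to 0.33. JUN stayed within 0.80 to 0.88 under all alternatives run. Of 315 recomputed values of 27 named list genes, 66 were no longer past the threshold and 0 reversed, and 15 of the genes were past it without each library in turn. Low read numbers limit FOS, FOSB, FOSL1 and EGR1 most.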
